A study of Mus musculus with 12 samples.

Results

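Leukocyte integrins and their immunoglobulin-family ligands were described across B cell populations of aged and young mice. The 10 genes are Itgax (CD11c), Itgam (CD11b), Itgal (CD11a), Itgb2 (CD18), Itgb1 (CD29), Itga4 (CD49d), Itgb7, Itgae (CD103), Icam1 and Vcam1. They were chosen by name, as the genes of leukocyte adhesion receptors whose symbol stands alone on a probe set of an Affymetrix mouse array. Earlier results of these data were known at that choice, so counts and medians over the 10 genes are a description and no test. All 10 of the 18193 genes measured were found, on 23 of the 34945 probe sets that carry 1 gene symbol.

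The study measured RNA of B cells taken by flow sorting from female C57BL/6 mice on 12 arrays, 3 in each of 4 groups, with no culture of the cells and no transgene or treatment named. Age-associated B cells (ABC) from spleen of mice older than 15 months, B1 cells (titled B1a) from the peritoneal cavity of mice of the same age, follicular B cells (FO) from spleen of mice of the same age, and B1 cells from the peritoneal cavity of mice aged 8 weeks are called old ABC, old B1, old FO and young B1 here. The labels give neither the surface markers of the sort nor whether the 3 replicates of a group are separate mice or pools, so the p-values reflect the spread among these arrays alone, which may be technical. CD11c and CD11b are markers often used to sort ABC, and Itgax and Itgam may therefore have been used to choose the cells. Organ and cell type cannot be told apart wherever B1 samples are set against spleen samples.

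Integrins are surface receptors made of an alpha and a beta chain that tie a cell to other cells or to matrix. The beta 2 chain, encoded by Itgb2, pairs with CD11a to form LFA-1, with CD11b to form Mac-1 and with CD11c to form p150,95, and LFA-1 and Mac-1 bind ICAM-1. The alpha 4 chain, encoded by Itga4, pairs with beta 1 to form VLA-4, which binds VCAM-1, or with beta 7 to form the receptor that binds MAdCAM-1 in gut vessels. CD103 pairs with beta 7 and binds E-cadherin. In spleen, LFA-1 and VLA-4 are known to hold marginal zone B cells in place through ICAM-1 and VCAM-1 on stromal cells.

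RefSeq promoters (mouse build GRCm38.p6, plus strand) are shown for 4 genes, 3 of which rose in old ABC against old FO and 1 of which was not called, so that the letters before their starts can be compared. Each line holds the 250 bases before the gene's start, 5′ to 3′, and lies at chr7:128129300-128129549 for Itgax, chr7:128062390-128062639 for Itgam, chr8:128685404-128685653 for Itgb1 and chr2:79255176-79255425 for Itga4. Capitals mark the matches, on either strand, to any of 4 motifs, and their letters are TCACAC for the half-site of T-box factors such as T-bet, GAGGAAG for the ETS core bound by PU.1, GGGCGG for the GC box and TATAAA for the TATA box. None of the marked matches overlap.
Itgax: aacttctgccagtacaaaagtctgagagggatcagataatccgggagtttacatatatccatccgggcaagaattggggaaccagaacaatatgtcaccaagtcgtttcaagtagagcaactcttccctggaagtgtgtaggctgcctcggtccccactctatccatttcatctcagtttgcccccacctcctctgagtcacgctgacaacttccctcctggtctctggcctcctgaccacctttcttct
Itgam: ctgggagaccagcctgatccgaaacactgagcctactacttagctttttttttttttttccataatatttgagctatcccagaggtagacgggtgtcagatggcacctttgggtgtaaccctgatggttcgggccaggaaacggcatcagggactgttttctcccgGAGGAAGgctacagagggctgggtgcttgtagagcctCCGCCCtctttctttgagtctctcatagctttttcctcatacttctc
Itgb1: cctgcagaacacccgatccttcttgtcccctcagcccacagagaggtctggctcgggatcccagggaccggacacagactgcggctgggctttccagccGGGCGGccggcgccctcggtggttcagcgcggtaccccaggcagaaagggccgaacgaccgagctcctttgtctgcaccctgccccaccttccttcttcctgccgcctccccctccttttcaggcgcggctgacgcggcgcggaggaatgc
Itga4: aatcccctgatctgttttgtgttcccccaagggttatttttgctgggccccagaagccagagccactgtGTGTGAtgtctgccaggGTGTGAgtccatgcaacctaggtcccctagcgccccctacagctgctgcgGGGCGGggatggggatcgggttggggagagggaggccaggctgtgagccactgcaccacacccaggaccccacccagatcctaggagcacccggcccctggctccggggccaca

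Of the 10 genes, 6 had a promoter in the table, these 4 with Itgb7 and Icam1. Itgax and Itgb7 held none of the 4 motifs. Itgam held 1 match to the PU.1-type motif, beginning 84 bases before the start, and a GC box. Itga4 held 2 matches to the T-box half-site and a GC box, and Itgb1 and Icam1 each held a GC box alone. Of 32851 mouse promoter windows of this length, 12.3% held the T-box half-site, 10.6% the PU.1-type motif, 32.7% the GC box and 12.4% the TATA box. GC content was 50% for Itgax and 49.6% for Itgam, neighbours on chromosome 7, and 68% for Itgb1 and 64% for Itga4. These matches describe letters in the reference and were set against no measure of binding.

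Across the arrays, the median intensity ran from 44.0 to 49.2 and within-group correlations of log2 values from 0.958 to 0.997. The 75th percentile was 346 on old B1 replicate 3 and 378 on old FO replicate 2, against 400.1 to 412 on the other 10 arrays. Values without both of these arrays are given for each of the 10 genes whose call changes without them. For other integrin, ligand or adaptor genes named here they are given where a call is lost. Calls that such other genes gained without the 2 arrays were not listed by gene. All groups carried B cell genes at high level, with Cd79a between 8630 and 10578 and Ms4a1 (CD20) between 7718 and 9339 on every array. The follicular markers Fcer2a and Cr2 were highest in old FO, the B1 marker Sox5 was highest in both B1 groups, and Tbx21, which encodes T-bet, ran from 2604 to 4405 in old ABC and no higher than 396 elsewhere. Other B1 markers were mixed. Zbtb32 was highest in both B1 groups, but Spn was highest in old ABC (3290 to 4497, against 714 to 1888 in old B1). Bhlhe41 overlapped between old ABC and both B1 groups, and Cd5 between old ABC and old B1. Of the ABC markers, Fas was highest in old ABC, while Cd80 overlapped between old ABC and old B1.

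In old ABC against old FO, 7 of the 10 genes rose, 0 fell and 3 were not called. A call is an adjusted p under 0.05 in limma (Benjamini-Hochberg over all 18193 genes), and 9.96% of all genes were called in this comparison, 7.12% as higher and 2.84% as lower. Itgax, Itgam, Itgb2, Itgb1, Itgae and Vcam1 rose at least 2-fold and Icam1 by less. Itgal, Itga4 and Itgb7 were not called. The median log2 difference of the 10 genes was 2.03, beside -0.03 over all genes. Without Itgax and Itgam, the possible sort markers, 5 of 8 rose and 0 fell.

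**Figure D1:**
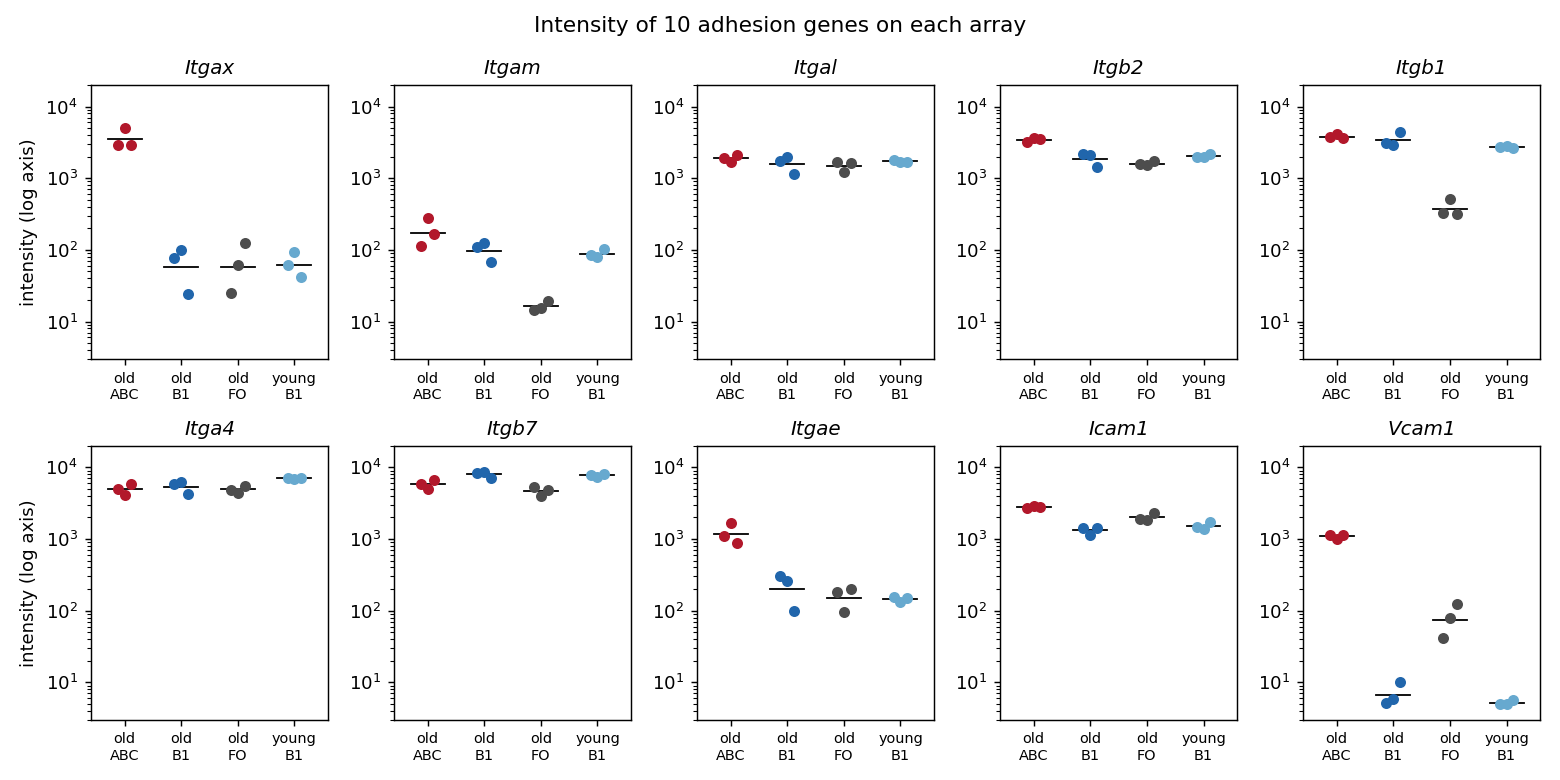
Deposited intensity of the 10 genes (log axis) on each of 12 arrays, in old ABC, old B1, old FO and young B1 (3 arrays each). Points are arrays and bars are geometric means. Itgax lies between 2859.6 and 5012 in old ABC and between 24.6 and 124 on all other arrays, while Itga4 and Itgal overlap between old ABC and old FO.

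Among the chains that pair with beta 2, Itgax, known from dendritic cells and from ABC, set old ABC apart. Its intensity was 2926, 5012 and 2859.6 in old ABC, 77.5, 100.4 and 24.6 in old B1, 25.4, 60.6 and 124 in old FO, and 61.0, 94.3 and 41.4 in young B1. The lowest old ABC array stood above every other array, and the other 3 groups overlapped each other. Itgax was 60.4-fold higher in old ABC than in old FO (log2 difference 5.92 ± 0.63, SE; adjusted p = 0.000177 in limma). It was 60.3-fold higher than in old B1 (5.91 ± 0.63, adjusted p = 0.000171 in limma). The difference was 5.32 in limma without old FO replicate 1, and against old B1 it was 5.30 without old B1 replicate 3. Old B1 and old FO gave a log2 difference of 0.00 with a 95% interval of -1.40 to 1.40, so differences within that interval remain possible.

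Itgam, the alpha chain of Mac-1 on myeloid cells and many B1 cells, followed another order. Its intensity was 114, 276 and 166 in old ABC, 108, 126 and 68.4 in old B1, 14.5, 15.2 and 19.6 in old FO, and 83.8, 79.0 and 104 in young B1. Both B1 groups and old ABC stood above old FO on every array. Itgam rose 10.7-fold in old ABC against old FO (log2 difference 3.41 ± 0.31, adjusted p = 6.54e-05 in limma). It rose 6.01-fold in old B1 against old FO (2.59 ± 0.31, adjusted p = 0.000265 in limma). The old FO values lay close above the 25th percentiles of their arrays (12.9, 14.1 and 12.8), so differences from them are not exact sizes. Old ABC and old B1 overlapped, with a difference of 0.83 ± 0.31 that was not called (adjusted p = 0.122 in limma). Without old ABC replicate 1, the lowest of its group, that difference was 1.13 (adjusted p = 0.0416 in limma).

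Itgal, the alpha chain of LFA-1, did not follow Itgax and Itgam. Its intensity was 1937, 1673 and 2138 in old ABC, 1739, 1986 and 1132 in old B1, 1698, 1211 and 1622 in old FO, and 1822, 1673 and 1682 in young B1. All 4 groups overlapped. In old ABC against old FO its log2 difference was 0.35 ± 0.21 with a 95% interval of -0.10 to 0.81 (adjusted p = 0.404 in limma), and neither of its 2 probe sets was called in any comparison.

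Itgb2, the chain these alpha chains share, rose in old ABC. Its intensity was 3167, 3695 and 3541 in old ABC, 2192, 2117 and 1426 in old B1, 1555, 1527 and 1713 in old FO, and 1952, 1980.3 and 2171 in young B1. Every old ABC array lay above every other array. The rise was 2.17-fold against old FO (log2 difference 1.12 ± 0.16, adjusted p = 0.00101 in limma) and 1.84-fold against old B1 (0.88 ± 0.16, adjusted p = 0.00381 in limma). With only the compared groups in the fit, the call against old B1 was lost (adjusted p = 0.0609 in limma). Old B1 and old FO were not called apart (0.23 ± 0.16, adjusted p = 0.38 in limma), but without old B1 replicate 3, the lowest of its group, the difference was 0.43 and called (adjusted p = 0.0156 in limma), as it was without the 2 arrays of low 75th percentile (0.40, adjusted p = 0.0324 in limma).

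Itgb1, the beta chain of VLA-4 and of many matrix receptors, separated old FO from the other 3 groups. Its intensity was 3752, 4084 and 3622 in old ABC, 3139, 2932 and 4370.3 in old B1, 329.6, 507 and 316 in old FO, and 2714, 2853 and 2676 in young B1. It rose 10.2-fold in old ABC against old FO (log2 difference 3.35 ± 0.19, adjusted p = 4.27e-06 in limma) and 9.13-fold in old B1 against old FO (3.19 ± 0.19, adjusted p = 2.26e-06 in limma). Old ABC and old B1 were not called apart (0.15, 95% interval -0.27 to 0.58, adjusted p = 0.665 in limma), though without the 2 arrays of low 75th percentile the difference of 0.33 was called (adjusted p = 0.0357 in limma).

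The gene is covered by 6 probe sets, and 5 of them rose in both comparisons with old FO, as the plot of probe sets shows. Their log2 differences ran from 1.80 to 3.35 in old ABC against old FO and from 1.20 to 3.20 in old B1 against old FO. The sixth read 4.19 to 6.82 on all 12 arrays, under the 25th percentile of every array, and was not called. Averaging all 6 gave 2.12 and 1.92 in the 2 comparisons.

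Itga4, the alpha chain that beta 1 and beta 7 share, did not separate the old groups. Its intensity was 4943, 4159.7 and 5748 in old ABC, 5886, 6179.6 and 4284 in old B1, 4812, 4432 and 5528 in old FO, and 7078, 6801 and 7110.2 in young B1. The 3 old groups overlapped. Its log2 difference in old ABC against old FO was 0.00 with a 95% interval of -0.36 to 0.36 (adjusted p = 0.999 in limma), and none of its 5 probe sets was called there or in the other comparisons of old groups.

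Itgb7 rose in old B1 against old FO. Its intensity was 5793, 4972 and 6654 in old ABC, 8410.0, 8646 and 7197 in old B1, 5371, 3998 and 4854 in old FO, and 7847, 7231 and 7997 in young B1. The rise was 1.71-fold (log2 difference 0.78 ± 0.14, adjusted p = 0.00386 in limma). Old ABC lay below old B1 on every array, and that difference of -0.48 ± 0.14 missed the threshold (adjusted p = 0.052 in limma). It passed without old B1 replicate 3, without old ABC replicate 3 or without old FO replicate 2 (adjusted p of 0.0298, 0.0377 and 0.0354 in limma), and at -0.56 without the 2 arrays of low 75th percentile (adjusted p = 0.0138 in limma). Against old FO, old ABC differed by 0.29 ± 0.14 (adjusted p = 0.297 in limma).

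Itgae, whose product pairs with beta 7 and is also a marker of some dendritic cells, rose in old ABC against both other old groups. Its intensity was 1102, 1654 and 871 in old ABC, 303, 261 and 97.5 in old B1, 179.7, 96.0 and 203 in old FO, and 157, 131 and 149 in young B1. No array of the other 3 groups reached the lowest old ABC array. The rise was 7.68-fold against old FO (log2 difference 2.94 ± 0.42, adjusted p = 0.00127 in limma) and 5.91-fold against old B1 (2.56 ± 0.42, adjusted p = 0.00259 in limma). Both of its probe sets were called in both comparisons, the second with differences of 2.41 and 2.16.

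**Figure D2:**
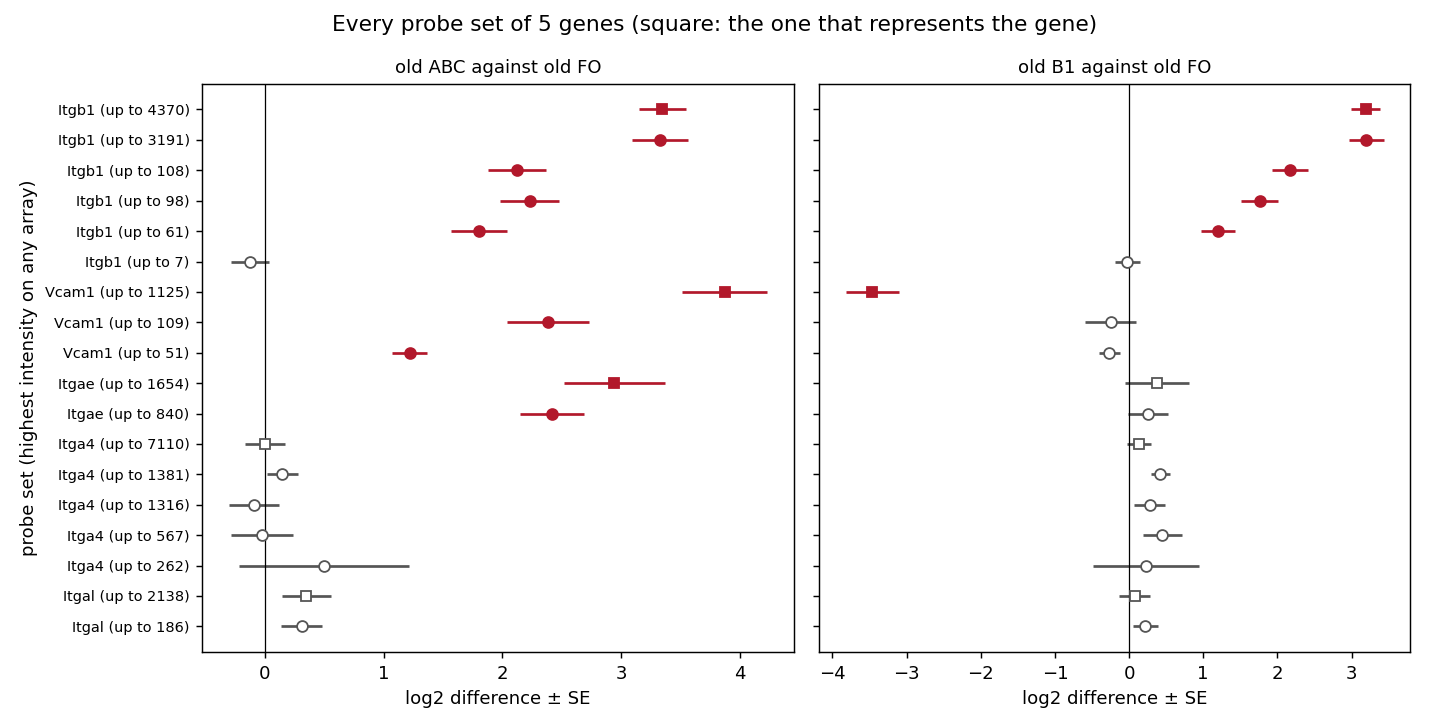
Log2 difference (± SE, limma over all probe sets) of every probe set of Itgb1, Vcam1, Itgae, Itga4 and Itgal, in old ABC against old FO (left) and old B1 against old FO (right). Filled symbols had an adjusted p under 0.05 and squares mark the probe set used for the gene. For Itgb1 5 of 6 probe sets are filled in both panels, for Vcam1 3 of 3 on the left and 1 of 3 on the right.

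Of the ligands, Icam1, which binds LFA-1 and Mac-1 and rises on activated B cells, was highest in old ABC and lowest in B1 cells. Its intensity was 2685, 2902 and 2832 in old ABC, 1426, 1134 and 1404 in old B1, 1880.2, 1858 and 2268 in old FO, and 1456, 1381 and 1715 in young B1. The 3 old groups did not overlap. Icam1 rose 2.13-fold in old ABC against old B1 (log2 difference 1.09 ± 0.13, adjusted p = 0.000364 in limma) and fell by 0.60 ± 0.13 on the log2 scale in old B1 against old FO (adjusted p = 0.00957 in limma). With only the compared groups in the fit, the call for old B1 against old FO was lost (adjusted p = 0.076 in limma).

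The rise of Icam1 in old ABC against old FO was small, 1.41-fold (log2 difference 0.49 ± 0.13, adjusted p = 0.0379 in limma), and depended on single arrays. It was lost when any old ABC array, old FO replicate 1, old FO replicate 2 or young B1 replicate 1 was left out (adjusted p between 0.059 and 0.127 in limma), without both arrays of low 75th percentile (adjusted p = 0.0647 in limma), with array weights or with arrays centred on their median (adjusted p of 0.0582 and 0.11 in limma). With arrays centred on the median of their genes it was 0.10 (adjusted p = 0.66 in limma), since that scaling lowers every difference of this comparison by 0.40.

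Vcam1, the ligand of VLA-4, known mainly from endothelium, stroma and macrophages, spanned dim and bright levels between groups. Its intensity was 1119, 1008 and 1125 in old ABC, 5.14, 5.89 and 10.1 in old B1, 41.7, 78.0 and 125 in old FO, and 4.97, 4.99 and 5.72 in young B1. Old ABC arrays were above all others and old FO arrays were above all B1 arrays. All 6 B1 arrays lay under their own 25th percentile of intensity, so those values mark a dim probe set and differences from them are not exact sizes.

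Vcam1 rose 14.6-fold in old ABC against old FO (log2 difference 3.87 ± 0.35, adjusted p = 6.26e-05 in limma), and all 3 of its probe sets were called, at 3.87, 2.38 and 1.22. Against old B1 all 3 were called as well, at 7.33, 2.63 and 1.48. With every value raised to the 25th percentile of its array, an alternative chosen after seeing the data, the first probe set gave 6.34. In old B1 against old FO it fell by 3.46 ± 0.35 on the log2 scale (adjusted p = 8.17e-05 in limma), or by 2.47 with raised values. The other probe sets gave -0.25 and -0.27 there and were not called (adjusted p of 0.734 and 0.306 in limma).

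In old ABC against old B1, 5 of the 10 genes rose (Itgax, Itgb2, Itgae, Icam1 and Vcam1), 0 fell and 5 were not called, where 12.8% of all genes were called, 7.40% as higher and 5.43% as lower. Their median log2 difference was 0.86, beside 0.02 over all genes. This comparison and that with old FO use the same old ABC arrays, so they are not independent. Without Itgax and Itgam, 4 of 8 rose. At an unadjusted p under 0.05, limma passed Itgam as higher and Itgb7 as lower in old ABC as well. That made 7 of the 10, beside 25.5% of all genes. In old B1 against old FO, 3 rose (Itgam, Itgb1 and Itgb7), 2 fell (Icam1 and Vcam1) and 5 were not called, where 16.4% of all genes were called, 8.40% as higher and 8.02% as lower. The median there was 0.18, beside -0.04 over all genes. Without Itgax and Itgam, 2 of 8 rose and 2 fell.

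**Figure D3:**
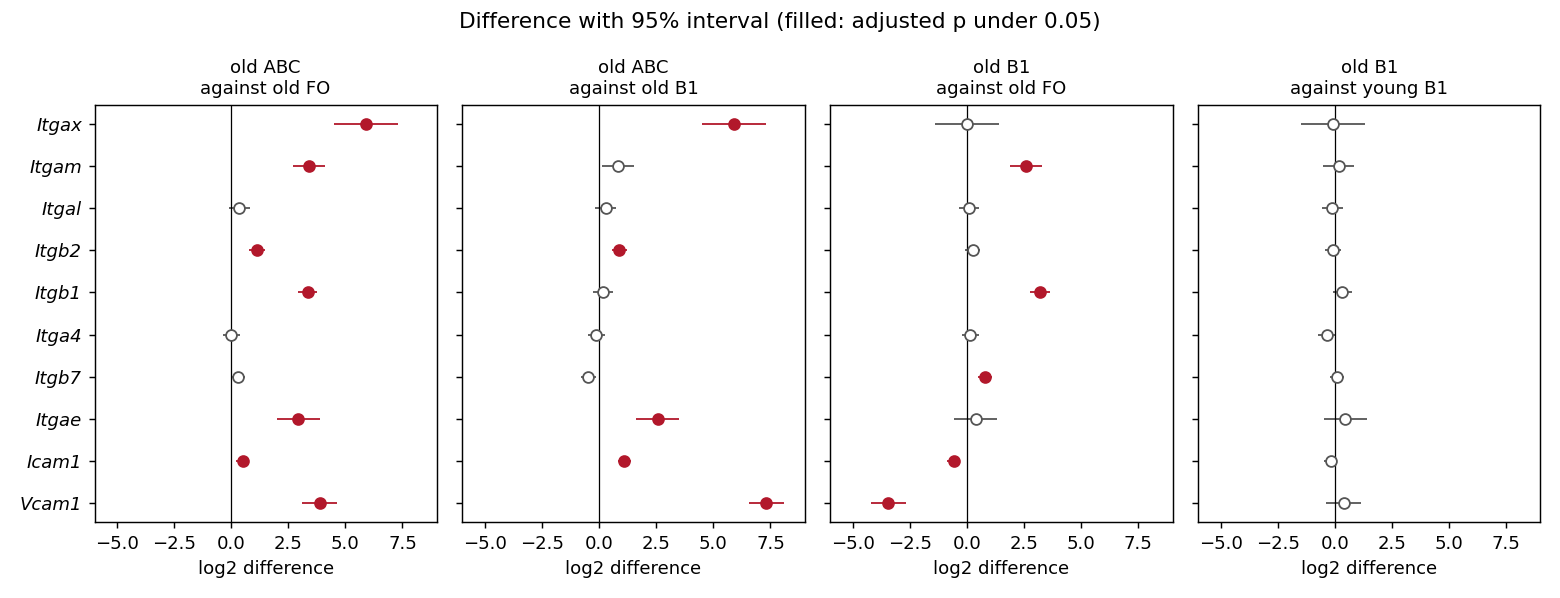
Log2 difference of the 10 genes with its 95% interval in 4 comparisons (limma, 3 arrays a group). Filled points had an adjusted p under 0.05 over 18193 genes. In the panels from left to right 7, 5, 5 and 0 points are filled.

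Age was compared in B1 cells alone. In old B1 against young B1, 0 of the 10 genes were called by limma, where 0.291% of all genes were called, 0.159% as higher and 0.132% as lower. At an unadjusted p under 0.05, limma passed 1 of the 10, beside 7.57% of all genes. That gene was Itga4, at 5886, 6179.6 and 4284 in old B1 against 7078, 6801 and 7110.2 in young B1. Its log2 difference was -0.38 ± 0.16 (95% interval -0.74 to -0.02, adjusted p = 0.652 in limma). Itgb1 differed by 0.32 ± 0.19 and was not called either (95% interval -0.11 to 0.75, adjusted p = 0.705 in limma). For Itgax the interval was -1.50 to 1.29, for Itgae -0.50 to 1.39 and for Vcam1 -0.41 to 1.15, so a rise of 2-fold lay within the interval of all 3 genes, and a fall of 2-fold within that of Itgax.

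Ordered by level, the 10 genes fell into a few patterns. For the order, old ABC and old FO were also set against young B1, where limma called 5 of the 10 genes as higher in old ABC (5.95% of all genes were higher and 5.47% lower), and 1 as higher and 3 as lower in old FO (4.91% and 8.00% of all genes). Itgax, Itgb2 and Itgae had old ABC on top, and their other 3 groups, taken as neighbours in that order, were not called apart. Itgam and Itgb1 had old ABC, old B1 and young B1 on top in that order, with none of these neighbours called apart, and young B1 over old FO was called (log2 differences of 2.44 for Itgam and 2.87 for Itgb1, adjusted p of 0.000481 and 5.72e-06 in limma). Vcam1 ran from old ABC over old FO to both B1 groups, with the first 2 steps called. Icam1 had the same top step, and its step from old FO to young B1 was not called (0.40, adjusted p = 0.075 in limma). For Itgal, Itga4 and Itgb7 no neighbours in the order were called apart. Groups further apart were called for Itgb7, lower in old FO than in old B1 or young B1 (adjusted p of 0.00386 and 0.00795 in limma). Another probe set of Itga4 was called lower than young B1 in old ABC and in old FO. Its log2 differences were -0.78 and -0.93 (adjusted p of 0.0046 and 0.00139 in limma over all probe sets).

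The genes with the most similar profile were taken as those with the smallest root mean square difference from the gene's own centred log2 values over the 12 arrays, as the plot of profiles shows. For Itgax, whose own spread was 2.64, these were Anxa8 (0.73), Ramp3 (0.77), S1pr5, a sphingosine phosphate receptor (0.78), and Dnm3 (0.82). For Itgam, with a spread of 1.32, they were Adssl1 (0.29), Tmem159 (0.40), Plcd3 (0.42) and Tmem106a (0.42). For Itgb1, with a spread of 1.38, they were Itpripl2 (0.22), Stom (0.31), Sirpa (0.32) and Fgl2 (0.34). Sirpa is in the dendritic cell marker list.

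For Vcam1, with a spread of 3.13, the 4 genes were Tbx21, which encodes the ABC factor T-bet (0.88), Igha, the IgA heavy chain (0.90), Camp (0.93) and Ngp (0.95). Camp and Ngp encode granule proteins of neutrophils and are in the neutrophil marker list. The median over all genes was 2.65 for Itgax, 1.36 for Itgam, 1.42 for Itgb1 and 3.14 for Vcam1. These values are a description of 12 arrays that share 4 group means.

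**Figure D4:**
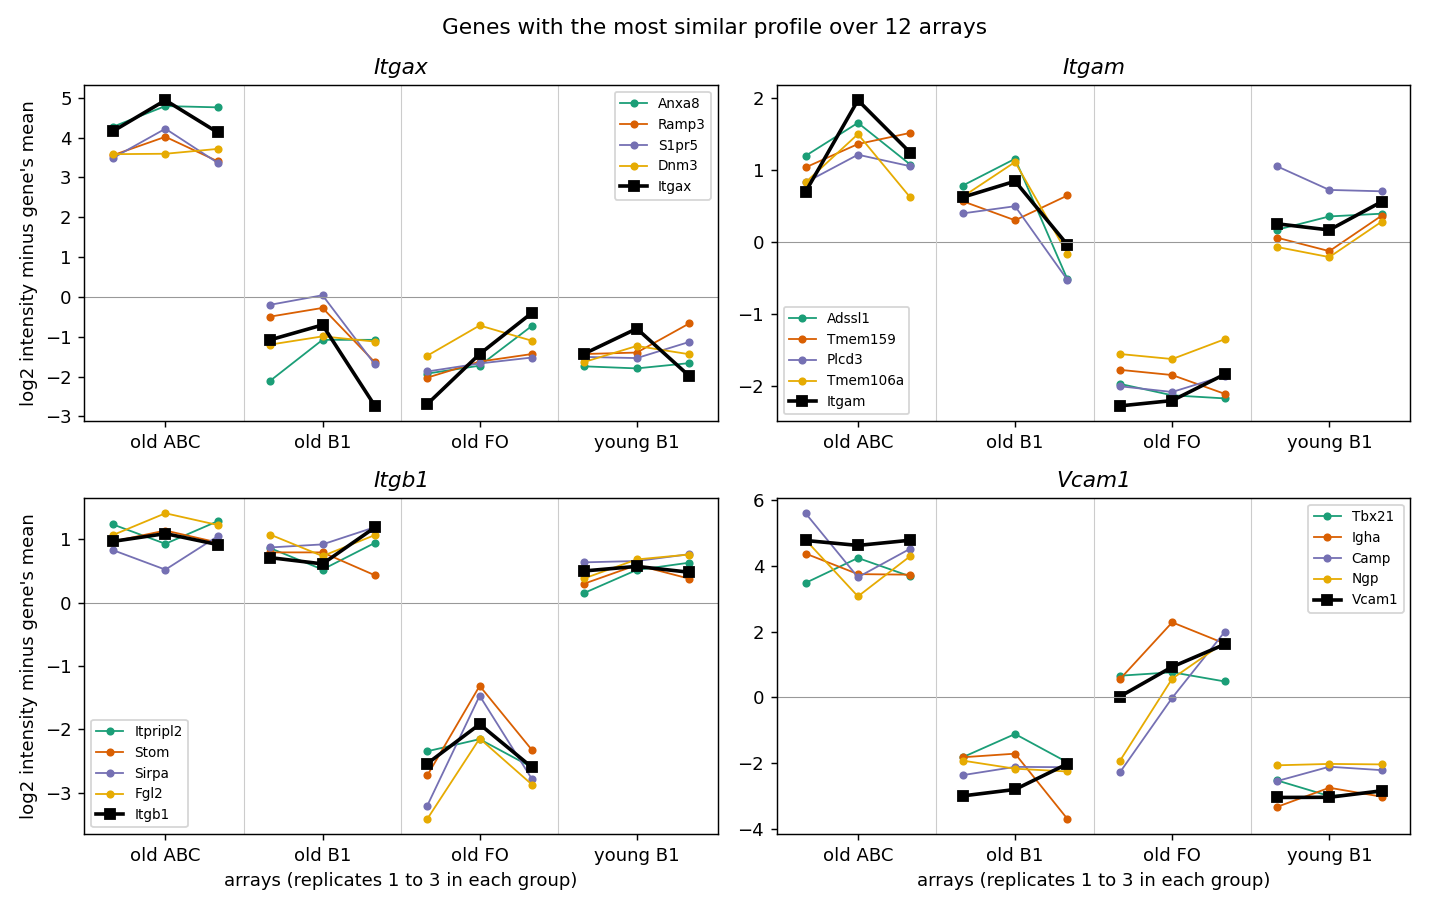
Log2 intensity minus each gene's mean over the 12 arrays for Itgax, Itgam, Itgb1 and Vcam1 (black squares) and the 4 genes closest to each, by array within old ABC, old B1, old FO and young B1. The closest genes lie at root mean square differences of 0.73 to 0.82 for Itgax, 0.29 to 0.42 for Itgam, 0.22 to 0.34 for Itgb1 and 0.88 to 0.95 for Vcam1.

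The other integrin subunits were taken as a list. Of 17 measured, 2 rose and 15 were not called in old ABC against old FO, where 9.96% of all genes were called. Their median log2 difference was 0.09, beside -0.03 over all genes. Itga2, the collagen receptor's alpha chain, was at 67.5, 154 and 47.7 in old ABC, 16.3, 21.2 and 19.7 in old B1, 21.6, 20.8 and 18.1 in old FO, and 16.9 to 18.9 in young B1. It rose by 1.97 ± 0.33 on the log2 scale against old FO and by 2.06 ± 0.33 against old B1 (adjusted p of 0.00332 and 0.00225 in limma). Itgb2l, a gene similar to Itgb2, rose by 1.26 ± 0.30 and 1.20 ± 0.30 (adjusted p of 0.0215 and 0.0225 in limma), a call lost without old FO replicate 1 or 2 in the first comparison and without old B1 replicate 2 in the second. With the mean of all its probe sets it was 0.52 and 0.47, and neither was called (adjusted p of 0.127 and 0.137 in limma). Both calls were lost with only the compared groups (adjusted p of 0.0723 and 0.112 in limma), and that against old B1 also without the 2 arrays of low 75th percentile (1.12, adjusted p = 0.0501 in limma).

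In old ABC against old B1, 3 of the 17 rose and 1 fell, and in old B1 against old FO 3 rose and 1 fell. Of all genes, 12.8% and 16.4% were called in these comparisons. Itga5, the alpha chain of the fibronectin receptor, was at 131, 79.8 and 173 in old ABC, 1358, 1237 and 744 in old B1, 51.8, 45.9 and 83.9 in old FO, and 573, 433 and 659.9 in young B1. It fell by 3.14 ± 0.34 in old ABC against old B1 and rose by 4.20 ± 0.34 in old B1 against old FO (adjusted p of 0.000182 and 1.61e-05 in limma). With the mean of all its probe sets these were -2.08 and 2.25, and both were called (adjusted p of 0.000331 and 0.000136 in limma). It pairs with beta 1, and its B1 arrays stood above all spleen arrays.

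Itgb3, the beta chain of the vitronectin receptor, ran the other way. It was at 669.7, 558 and 542 in old ABC, 161, 97.8 and 18.7 in old B1, 1035, 1992 and 1379 in old FO, and 144, 173 and 128 in young B1. It rose by 3.14 ± 0.62 in old ABC against old B1 and fell by 4.41 ± 0.62 in old B1 against old FO (adjusted p of 0.00709 and 0.000691 in limma). Without old B1 replicate 3, the lowest, these were 2.23 and -3.50, and without old B1 replicate 1, the highest, 3.78 and -5.05. The mean of all probe sets gave 1.76 and -2.67, and both were called (adjusted p of 0.00408 and 0.000212 in limma). The call in old ABC against old B1 was lost with only the compared groups (adjusted p = 0.0807 in limma).

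Itga6, a laminin receptor chain, rose by 0.89 ± 0.23 in old B1 against old FO (adjusted p = 0.0257 in limma), a call lost without old B1 replicate 1 or 2 or old FO replicate 1 or 3. With only the compared groups in the fit it was lost too (adjusted p = 0.154 in limma). Itga8 rose by 3.19 ± 0.90 (adjusted p = 0.0347 in limma) on old B1 values of 72.2, 12.5 and 247 against 10.9, 5.61 and 4.81 in old FO, and that call was lost in 9 of 12 fits that left out 1 array, all but those without old ABC replicate 1, old ABC replicate 2 or old B1 replicate 2. It was 4.33 without old B1 replicate 2 and 2.18 without old B1 replicate 3. All old FO arrays lay under their own 25th percentile for Itga8, so its difference is no exact size. With values raised to that percentile it was 2.20 (adjusted p = 0.123 in limma), without the 2 arrays of low 75th percentile it was 2.05 (adjusted p = 0.118 in limma), and with only the compared groups the adjusted p was 0.152 in limma, none of them called. The mean of its probe sets gave 1.67 and was called (adjusted p = 0.0296 in limma). In old B1 against young B1, 0 of the 17 were called by limma, and 2 passed an unadjusted p under 0.05, beside 0.291% and 7.57% of all genes.

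Of 11 other integrin ligands, 0 were called by limma in old ABC against old FO, and 2 passed an unadjusted p under 0.05, beside 9.96% and 20.4% of all genes. F11r, which encodes the junction protein JAM-A, a ligand of LFA-1, was at 28.7, 13.3 and 18.7 in old ABC, 274, 252 and 543 in old B1, 14.8, 18.3 and 17.2 in old FO, and 99.4, 54.8 and 76.6 in young B1. It fell by 4.12 ± 0.34 in old ABC against old B1 and rose by 4.32 ± 0.34 in old B1 against old FO (adjusted p of 3.64e-05 and 1.56e-05 in limma). It was also the 1 ligand called with age, 2.16 ± 0.34 higher in old B1 than in young B1 (adjusted p = 0.0341 in limma). That call was lost in 8 of 12 fits that left out 1 array, all but those without old ABC replicate 1 or 2 or old B1 replicate 2 or 3, with a difference between 1.82 and 2.37 throughout. The mean of its probe sets gave -2.19, 2.27 and 0.98 in the 3 comparisons, and the difference with age was then not called (adjusted p = 0.118 in limma). It was also not called with cyclic loess, with the replicate block or with only the compared groups (adjusted p of 0.0543, 0.0617 and 0.223 in limma).

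Fn1, which encodes fibronectin, the ligand of alpha 5 beta 1 and VLA-4, was at 129, 97.8 and 172 in old ABC, 4281, 4782 and 475 in old B1, 16.9, 20.5 and 44.1 in old FO, and 2545, 2836 and 4348 in young B1. It fell by 4.04 ± 0.76 in old ABC against old B1 and rose by 6.43 ± 0.76 in old B1 against old FO (adjusted p of 0.00532 and 0.000216 in limma). Without old B1 replicate 3, the lowest of its group, these were -5.13 and 7.51. The mean of its probe sets gave -3.21 and 4.26. The Fn1 call in old ABC against old B1 was lost with only the compared groups (adjusted p = 0.0624 in limma). Fn1 is also in the list of macrophage markers. Icam2, a ligand of LFA-1, fell by 0.71 ± 0.19 in old B1 against old FO (adjusted p = 0.0268 in limma), a call lost without any 1 of the old FO arrays and with only the compared groups (adjusted p = 0.152 in limma).

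Genes that regulate integrin activation in either direction, or link integrins to actin, were taken as the list of activation and adaptor genes. Of 26 measured, 4 rose and 0 fell in old ABC against old FO, where 9.96% of all genes were called. Their median log2 difference was -0.05, beside -0.03 over all genes. Skap2, an adaptor, was at 2749, 2581 and 2729 in old ABC, against 1611, 1667 and 1541 in old FO, and rose by 0.74 ± 0.09 (adjusted p = 0.000446 in limma). Actn1, which encodes an alpha-actinin, was at 1837, 732 and 1058 in old ABC, against 77.3, 251 and 129 in old FO, and rose by 3.05 ± 0.47 (adjusted p = 0.0019 in limma). Fyb, which encodes the adaptor ADAP, rose by 1.88 ± 0.41 and Vcl, which encodes vinculin, by 0.45 ± 0.12 (adjusted p of 0.015 and 0.0346 in limma). The call of Fyb was lost without old ABC replicate 1, old ABC replicate 3 or old FO replicate 1, and that of Vcl in 8 of 12 fits that left out 1 array, all but those without an old B1 array or old FO replicate 2. With arrays centred on the median of their genes, Skap2 gave 0.35 and Vcl 0.058, and neither was called (adjusted p of 0.124 and 0.754 in limma). Vcl was also not called with the mean of its probe sets (0.16), with arrays centred on their median (0.37), with the replicate block or with only the compared groups (adjusted p of 0.664, 0.102, 0.0725 and 0.066 in limma).

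In old B1 against old FO, 7 of the 26 rose and 3 fell, and in old ABC against old B1 2 rose and 2 fell. Of all genes, 16.4% and 12.8% were called in these comparisons. Vcl was at 2037, 1795 and 1859 in old ABC, 4397, 3448 and 3749 in old B1, and 1248, 1552 and 1365 in old FO. It rose by 1.48 ± 0.12 in old B1 against old FO and fell by 1.02 ± 0.12 in old ABC against old B1 (adjusted p of 1.58e-05 and 0.000295 in limma), or by 0.86 in the first with the mean of its probe sets. Ptk2b, which encodes the kinase PYK2, moved the other way, 1.70 ± 0.22 lower in old B1 than in old FO and 1.18 ± 0.22 higher in old ABC than in old B1 (adjusted p of 0.000456 and 0.00568 in limma). Its call in old ABC against old B1 was lost with only the compared groups (adjusted p = 0.0804 in limma).

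Actn1 (2.54 ± 0.47) and Lims1 (0.61 ± 0.11), which encodes the adaptor PINCH1, also rose in old B1 against old FO (adjusted p of 0.00387 and 0.00259 in limma). Actn1 gave 1.90 with the mean of its probe sets and 3.37 without the 2 arrays of low 75th percentile, called in both. Lims1 was not called with the mean of its probe sets (0.31, adjusted p = 0.16 in limma) or with arrays centred on the median of their genes (0.35, adjusted p = 0.195 in limma). In old ABC against old B1, Dok1 rose by 0.57 ± 0.14 and Apbb1ip, which encodes RIAM, fell by 0.55 ± 0.15 (adjusted p of 0.0214 and 0.0331 in limma), and without old ABC replicate 1, old ABC replicate 2 or old B1 replicate 2 each of these calls was lost, and that of Apbb1ip also without old ABC replicate 3, old B1 replicate 1, old FO replicate 3, young B1 replicate 2 or young B1 replicate 3. With only the compared groups both were lost (adjusted p of 0.0827 and 0.177 in limma), as was Dok1 with arrays centred on the median of their genes (0.44, adjusted p = 0.119 in limma) and Apbb1ip with the mean of its probe sets (-0.40, adjusted p = 0.251 in limma). With age in B1 cells, 0 of the 26 were called by limma, and 1 passed an unadjusted p under 0.05, beside 0.291% and 7.57% of all genes.

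Counts over these 3 lists moved with single arrays. The share of all genes called in each of these fits is not given here. The counts therefore do not tell a change in these lists from a change over all genes. Without old B1 replicate 3, the comparison of old ABC with old FO called 6 subunits, 2 ligands and 8 activation and adaptor genes, in place of 2, 0 and 4. The lowest counts on leaving out an array in that comparison were 1 (without old FO replicate 1 or 2), 0 and 2 (without old ABC replicate 1, old ABC replicate 3 or old FO replicate 1). In old B1 against old FO the activation and adaptor count of 10 ran from 5 without old FO replicate 1 or 3 to 12 without old B1 replicate 3, and the subunit count of 4 was 2 without old B1 replicate 1, old FO replicate 1 or old FO replicate 3. In old ABC against old B1 the subunit count of 4 was 6 without old B1 replicate 3, and the activation and adaptor count of 4 was 2 without old ABC replicate 1, old ABC replicate 2 or old B1 replicate 2. With age in B1 cells, the ligand count of 1 ran from 0 to 2, as F11r was lost or, without old B1 replicate 2, another was added.

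Several of the 10 genes are also expressed by other leukocytes, so marker lists of those cells were read beside them, and in these bulk samples fewer cells of a type and less RNA per cell cannot be told apart. As background for the marker counts, 9.96% of all genes were called in old ABC against old FO and 12.8% in old ABC against old B1. In old B1 against old FO the share was 16.4%, and in old B1 against young B1 0.291%. Of 18 macrophage and monocyte markers, 13 rose and 0 fell in old ABC against old FO, 1 rose and 3 fell in old ABC against old B1, and 17 rose and 0 fell in old B1 against old FO. Their summed intensity ran from 16761 to 18778 in old ABC, from 13280.4 to 35704 in old B1, from 1227 to 3243 in old FO and from 18669 to 32076 in young B1. Old FO was lowest on this sum, as it was for Itgam and Itgb1, and Itgax was no higher than 100.4 in the B1 groups, where the sum was high. The markers with the lowest p were Mrc1 (3.32 ± 0.31) and Adgre1 (4.27 ± 0.40) in old ABC against old FO (adjusted p of 6.93e-05 and 7.88e-05 in limma). In old FO 1 of the 18 markers, Vsig4, lay under the 25th percentile on all arrays, and in the other groups none did.

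Of 11 neutrophil markers, 6 rose and 0 fell in old ABC against old FO, and 9 rose and 0 fell in old ABC against old B1. In old B1 against old FO 0 were called by limma, and 7 passed an unadjusted p under 0.05, beside 28.6% of all genes. The sum of the neutrophil markers was 35256, 20786 and 26409.5 in old ABC, 404, 449.8 and 234 in old B1, 474, 2019 and 10008 in old FO, and 329, 1508 and 436 in young B1. Ltf (4.18 ± 0.63) and Mpo (2.77 ± 0.46) had the lowest p in old ABC against old FO (adjusted p of 0.0017 and 0.00292 in limma). Old FO replicate 3, which had the highest neutrophil sum of its group, also had its highest Itgax and Vcam1, at 124 and 125. Within old ABC, replicate 2 had the lowest neutrophil sum, the highest Itgax, Itgb2 and Itgae (5012, 3695 and 1654) and the lowest Vcam1 (1008). Itgax, Itgb2, Itgae and Vcam1 were highest in old ABC, as was this sum, and the part of neutrophil RNA in their levels was not tested.

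Of 12 dendritic cell markers, Itgae among them, 4 rose and 0 fell in old ABC against old FO, 5 rose and 0 fell in old ABC against old B1, 3 rose and 3 fell in old B1 against old FO, and 2 fell in old B1 against young B1. Their sum varied less, from 10040.0 to 11149 in old ABC, 6513 to 7198 in old B1, 8450.2 to 9518 in old FO and 9651 to 10665 in young B1. Sirpa (3.29 ± 0.35, adjusted p = 0.000181 in limma) led them in old ABC against old FO. Its log2 difference was 3.48 in old B1 against old FO and -0.19 in old ABC against old B1, so its level was not particular to old ABC. Flt3, a defining gene of dendritic cells, was at 65.3 to 157 in old ABC, against 129 to 162 in old FO, and the groups overlapped. Zbtb46, also a defining gene of these cells, was at 341 to 517 in old ABC, against 115 to 145 in old FO, with no overlap (log2 difference 1.70 ± 0.47, adjusted p = 0.0459 in limma).

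**Figure D5:**
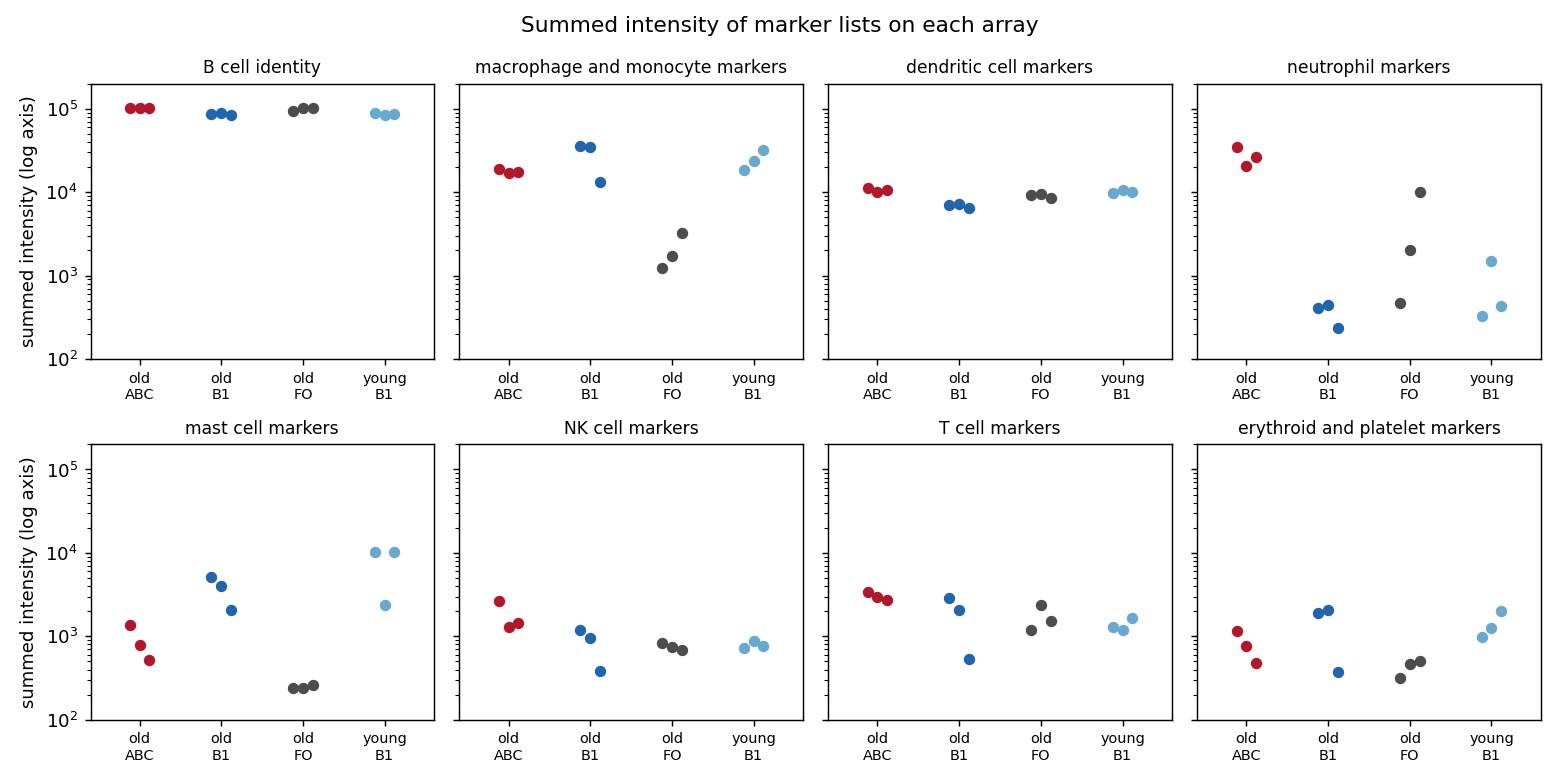
Summed intensity (log axis) of B cell identity genes and of 7 lists of other cell type markers on each array of old ABC, old B1, old FO and young B1. The neutrophil sum lies between 20786 and 35256 in old ABC and at or under 10008 elsewhere, and the macrophage sum is lowest in old FO, at 1227 to 3243.

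Of 9 mast cell markers, 3 rose in old ABC against old FO, 4 fell in old ABC against old B1 and 6 rose in old B1 against old FO, with sums of 521 to 1375 in old ABC, 2098 to 5101 in old B1, 238 to 259.5 in old FO and 2368 to 10281 in young B1. Of 8 NK cell markers 2, 3 and 1 rose in these 3 comparisons, and Ncr1 lay under the 25th percentile in all groups but old ABC, where it read 14.4 to 38.5. Of 10 T cell markers 1 rose in each comparison with old ABC. Of 7 erythroid and platelet markers 1 rose in old ABC against old FO, 3 rose and 1 fell in old ABC against old B1, and 1 rose and 3 fell in old B1 against old FO.

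Of 14 B cell identity genes, 1 fell in old ABC against old FO, 4 rose in old ABC against old B1, and 1 rose and 4 fell in old B1 against old FO. Their sum ran from 100953 to 103268 in old ABC, 84497 to 88613 in old B1, 95194 to 103480 in old FO and 84273 to 87858 in young B1. How far RNA of any of these cells contributes to the 10 adhesion genes was not tested.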

How the data were processed

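The values are intensity on a linear scale as deposited by the authors in the series matrix, and per the submitters' processing notes they were made with RMA and affy, whose versions and settings were not given in the sources used here. Every test used the log2 of the intensity. Each gene was represented by the probe set of highest mean among those with 1 symbol (45037 probe sets, 34945 with 1 symbol, 932 with several and 9160 with none, 18193 genes), with no filter on dim probe sets. All 12 arrays entered 1 limma 3.58.1 fit (R 4.3.3, lmFit and eBayes) with 4 group means and 8 residual degrees of freedom. Calls rest on p-values adjusted by Benjamini-Hochberg over all genes of 1 comparison, with 0.05 as the threshold. Differences are log2, the group named first minus the other, ± the standard error of the fit. The number of arrays limits the precision.

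The members and the gene lists were chosen with earlier results of these data known. The text names all 10 members with every probe set, up to 4 called genes of lowest p a comparison from each of the lists of integrin subunits, ligands and activation genes, the 4 closest profiles for 4 members, and up to 2 called genes from the lists of other cell types. Predicted genes and clone names were passed over. Symbols and promoter sequence came from the platform annotation and RefSeq (GRCm38.p6). Alternatives were array weights, trend and robust eBayes, fits with only the compared groups, cyclic loess, a block for the replicate number, centring on the array median, a filter at the median level, the mean of all probe sets, every probe set as its own feature, an adjusted p under 0.01, the members without Itgax and Itgam, and fits without each array or without old B1 replicate 3 and old FO replicate 2. After seeing the data, centring on the median over genes and raising values to the 25th percentile were added. On simulated data with 18193 genes, each array was drawn independently around 1 mean a gene, and 200 genes were changed. Of 100 genes changed by a log2 of 2 in old ABC against old FO 90 were called, and of 100 changed by 1, 56. In the real comparison 9.96% of all genes were called, so these rates are not its power. Python 3.11.15 with matplotlib 3.10.9 drew the figures.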

Additional observations from a re-analysis of the deposited data

How the results depend on the processing

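The number of the 10 adhesion genes called ran from 5 to 7 in old ABC against old FO, from 4 to 7 in old ABC against old B1, from 3 to 6 in old B1 against old FO, and was 0 in old B1 against young B1 throughout the settings tried. Leaving out each array in turn gave 6 to 7, 5 to 6, 5 to 6 and 0. The share of all genes called in each setting is not given here. The 1 count that moved by more than 1.5 times was 3 in old B1 against old FO with only genes at or above the median level, where Itgam and Vcam1 were not among the 8 genes tested. With the replicate block the counts were 7, 5, 5 and 0. Same-numbered arrays did not deviate together (r from -0.391 to 0.228 over the 4 comparisons), so the numbers were not taken as pairs.

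No called difference of the 10 genes changed sign. Differences that were not called and did change sign are given here, and the cause was not tested. With arrays centred on the median over genes, a setting added after seeing the data that lowers differences by 0.40 in old ABC against old FO, by 0.13 in old ABC against old B1 and by 0.26 in old B1 against old FO, Itga4 gave -0.39, Itgal -0.045 and Itgb7 -0.10 in old ABC against old FO, and Itga4 -0.13, Itgal -0.19, Itgax -0.26 and Itgb2 -0.031 in old B1 against old FO. With arrays centred on their median, Itga4 gave -0.080 in old ABC against old FO and Itgax -0.045 in old B1 against old FO. With array weights, Itga4 gave -0.093 in old ABC against old FO, and Itgal 0.089, Itgax 0.55 and Itgb2 0.043 in old B1 against young B1. With cyclic loess, Itgax gave 0.024 in old B1 against young B1. Without the 2 arrays of low 75th percentile, Itga4 gave -0.072 in old ABC against old FO, and Itgal 0.11, Itgax 0.51 and Itgb2 0.084 in old B1 against young B1. On leaving out each array, Itga4 ran from -0.11 to 0.12 in old ABC against old FO, Itgal from -0.091 to 0.31 and Itgax from -0.59 to 0.62 in old B1 against old FO, and in old B1 against young B1 Itgal ran from -0.30 to 0.11, Itgam from -0.035 to 0.41, Itgax from -0.51 to 0.51 and Itgb2 from -0.23 to 0.084.

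Limits are the 3 arrays a group, replicates of unstated origin, unnamed sort markers, the organ that differs between B1 and spleen cells, and RNA of other cell types, whose levels are given beside the results. Values under the 25th percentile of an array, such as Vcam1 in B1 cells, mark dim probe sets and set no exact size of a difference. The same holds for values close above it, such as Itgam in old FO.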
